A study of Rattus norvegicus with 12 samples.

Results

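Hmox1, Nqo1, Akr1b10, Gclc, Gclm, Txnrd1, Srxn1, Nfe2l2 and Keap1 are the 9 rat genes described here: the transcription factor NRF2, which Nfe2l2 encodes, its inhibitor KEAP1 and 7 enzymes that NRF2 is known to control. Each was taken as the probe set whose platform annotation gives that single symbol, and all 9 were found with 1 probe set each, among 13215 named genes and 19418 probe sets. RNA came from livers of 12 Sprague Dawley rats, with 1 whole-transcript array per rat and 4 rats per diet. The first group ate naproxen at 400 mg/kg diet for 7 days, a common anti-inflammatory pain drug acting on both cyclooxygenase enzymes. The second ate NO-naproxen at 550 mg/kg diet for 7 days, naproxen with an added group able to release nitric oxide. The third ate the control diet for the same 7 days. The sources used here do not give the age or sex of the rats, or the dose each rat took in. The rats were kept in single cages and ate freely.

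NRF2 is held in the cytosol by KEAP1, which presents it for degradation. When cysteines of KEAP1 are modified by electrophiles or oxidants, newly made NRF2 escapes, enters the nucleus and binds antioxidant response elements together with small MAF proteins, where the repressor BACH1 competes for some sites, that of Hmox1 among them. In liver the targets of NRF2 supply glutathione, thioredoxin reduction, quinone reduction and haem breakdown. Because NRF2 is controlled mainly through its stability, the transcript of Nfe2l2 itself is a poor measure of its activity.

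The 12 arrays had median intensities between 89.8 and 118 on a linear scale. The hepatocyte products Alb, Ttr and Serpina1 lay among the brightest probe sets on every array, with Alb between 11799 and 14795. All 9 members had means above the range of the 971 probe sets for olfactory and vomeronasal receptors, genes of the nose taken here as a floor for liver (95th percentile 6.44 on the log2 scale). Fold changes are differences of log2(intensity + 16), tested with limma over all probe sets, and they understate the change of dim genes. The median standard error of such a difference was 0.21, and with 4 arrays a diet the precision is limited. No member passed an adjusted p of 0.05 in any comparison, so the differences below are measured values with unadjusted p-values. The labels call the rats of a diet biological replicates. The bulk RNA holds every cell type of the liver, so fewer cells of a type and less RNA per cell cannot be told apart.

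The RefSeq promoter table (build GRCr8) held 9 windows for 8 of the members, of which the 250 bases before the start are used here. Hmox1 had no window. Sequence further upstream was not searched, so a window without a motif does not show that the gene lacks it. Nqo1 and Akr1b10 are shown because their signals lay furthest above control with naproxen, and Gclm and Txnrd1 because their windows hold the core of the antioxidant response element, TGACNNNGC. Capitals mark that core and 3 other motifs, searched on both strands: the AP-1 like TGANTCA, the GC box GGGCGG and the TATA box TATAAA. The windows lie at chr19:52220268-52220517 (minus strand) for Nqo1, chr4:64005382-64005631 (plus strand) for Akr1b10, chr2:213031885-213032134 (plus strand) for Gclm and chr7:22755905-22756154 (minus strand) for Txnrd1.
Nqo1: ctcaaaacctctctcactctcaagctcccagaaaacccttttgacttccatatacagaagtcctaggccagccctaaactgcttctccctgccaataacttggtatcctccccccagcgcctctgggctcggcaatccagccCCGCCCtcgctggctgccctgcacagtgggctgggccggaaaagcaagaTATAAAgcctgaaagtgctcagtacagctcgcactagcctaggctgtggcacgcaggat
Akr1b10: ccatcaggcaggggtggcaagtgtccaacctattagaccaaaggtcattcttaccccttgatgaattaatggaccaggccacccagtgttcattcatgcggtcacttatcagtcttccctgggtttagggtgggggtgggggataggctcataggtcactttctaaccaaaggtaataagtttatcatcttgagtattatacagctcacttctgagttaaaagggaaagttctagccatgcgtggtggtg
Gclm: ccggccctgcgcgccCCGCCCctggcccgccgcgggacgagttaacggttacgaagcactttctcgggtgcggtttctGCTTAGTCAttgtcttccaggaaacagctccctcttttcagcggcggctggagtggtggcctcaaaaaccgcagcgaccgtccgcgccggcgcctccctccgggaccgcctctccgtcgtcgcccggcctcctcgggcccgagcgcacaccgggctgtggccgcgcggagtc
Txnrd1: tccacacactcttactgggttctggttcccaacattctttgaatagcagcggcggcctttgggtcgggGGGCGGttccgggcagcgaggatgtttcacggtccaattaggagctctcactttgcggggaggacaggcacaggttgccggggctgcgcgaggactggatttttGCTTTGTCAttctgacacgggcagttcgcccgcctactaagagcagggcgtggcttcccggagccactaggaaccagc

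The core was found on the minus strand of the gene as GCTTAGTCA, 172 bases before the start of Gclm, and as GCTTTGTCA, 78 bases before one of the 2 starts listed for Txnrd1. These were 2 of the 9 member windows, against 10.1% of all 33469 windows of the same length. The Srxn1 window held the AP-1 like motif as TGAGTCA, 62 bases before the start, a motif found in 6.34% of all windows. A GC box stood in 6 of the 9 windows, against 30.5% of all. The letters TATAAA stood in the windows of Nqo1 and Gclc, 59 and 244 bases before the start, against 12.9% of all. The 9 letters TGACTCAGC match the core and the AP-1 like motif at once and stood in 0.376% of all windows. Among the 68 genes of the pathway lists with a window, 4 NRF2 targets held them: the glutathione transferase Gstp1 (chr1:210769748-210769776, minus strand), the peroxiredoxin Prdx1 (chr5:135383761-135383789, plus strand), the malic enzyme Me1 (chr8:96540393-96540421, minus strand) and the epoxide hydrolase Ephx1 (chr13:95263156-95263184, minus strand). These sites are printed with 10 bases on either side, the match in capitals. A match is a run of letters, and binding was not measured.
Gstp1: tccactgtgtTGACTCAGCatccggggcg
Prdx1: cagggaaagcGCTGAGTCAtaccccgccg
Me1: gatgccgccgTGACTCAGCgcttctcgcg
Ephx1: caacagatcaGCTGAGTCAttggggctat

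Hmox1 encodes haem oxygenase 1, the inducible enzyme that splits haem into biliverdin, iron and carbon monoxide, and its signal was above control with both drugs. It measured 348, 369, 214 and 282 with naproxen, 320.5, 414, 302 and 309 with NO-naproxen, and 259, 211, 191 and 227 in controls (intensity, replicates 1 to 4). All 4 NO-naproxen arrays lay above all 4 control arrays, whereas naproxen replicate 3 lay among the controls and 3 of 4 naproxen arrays above them. The means were 303 ± 69.9 with naproxen, 336 ± 52.3 with NO-naproxen and 222 ± 28.7 in controls (SD, n = 4 each). The log2 fold change against control was 0.40 ± 0.19 (SE) with naproxen (limma, unadjusted p = 0.0479, adjusted p = 0.392). With NO-naproxen it was 0.56 ± 0.19 (limma, unadjusted p = 0.00882, adjusted p = 0.468). The naproxen difference had an unadjusted p under 0.05 in 2 of the 8 fits that left out 1 array of the diets compared, those without naproxen replicate 3 and without control replicate 1, and the NO-naproxen difference in 8 of 8.

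Nqo1 encodes a quinone reductase that is a standard readout of NRF2 activity, and its highest mean was that of the naproxen group. It measured 312, 361, 259 and 344 with naproxen, 339.9, 264, 259.6 and 223 with NO-naproxen, and 208, 179, 259.5 and 199 in controls (intensity, replicates 1 to 4). Naproxen and control arrays met at a single point, naproxen replicate 3 at 259.0 against control replicate 3 at 259.5, and 3 of 4 naproxen arrays lay above every control. Of the NO-naproxen arrays, replicate 4 lay within the control range and replicate 3 just above it. The means were 319 ± 45.0 with naproxen, 272 ± 49.0 with NO-naproxen and 211 ± 34.4 in controls (SD, n = 4 each). The log2 fold change was 0.56 ± 0.18 (SE) with naproxen (limma, unadjusted p = 0.0061, adjusted p = 0.381), and the unadjusted p stayed under 0.05 in 8 of 8 fits without 1 array. With NO-naproxen it was 0.34 ± 0.18 (limma, unadjusted p = 0.0763, adjusted p = 0.468). It was 0.42 once NO-naproxen replicate 4 was left out and 0.43 once control replicate 3 was, both with an unadjusted p under 0.05.

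Akr1b10 encodes an aldo-keto reductase that reduces reactive aldehydes and is a strong NRF2 target in human cells. It had the largest differences from control of the 9 members. It measured 733, 306, 212 and 249 with naproxen, 309, 304, 435 and 245 with NO-naproxen, and 222, 214, 153 and 142 in controls (intensity, replicates 1 to 4). Naproxen replicate 1 stood far above every other array, and the group's coefficient of variation was 64.5%, against 24.7% with NO-naproxen and 22.4% in controls. All 4 NO-naproxen arrays lay above all 4 control arrays, and 3 of 4 naproxen arrays did. The log2 fold change was 0.83 ± 0.30 (SE) with naproxen (limma, unadjusted p = 0.015, adjusted p = 0.381), but 0.46 without naproxen replicate 1 (limma, unadjusted p = 0.0594). With NO-naproxen it was 0.77 ± 0.30 (limma, unadjusted p = 0.0228, adjusted p = 0.468). Without NO-naproxen replicate 3, control replicate 3 or control replicate 4 its unadjusted p in limma was 0.0698, 0.0564 or 0.0639.

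Akr1b10 has close relatives on the array, and the probe sequences were not used here, so cross-hybridization between them was not tested. These relatives were chosen after their values were seen. Akr1b8, dim and within the olfactory receptor range, measured 44.3 to 57.8 with naproxen and 13.6 to 37.3 in controls, which did not overlap, with a log2 fold change of 0.68 ± 0.21 (SE). With NO-naproxen Akr1b8 measured 25.0 to 52.7, which overlapped with control, with a log2 fold change of 0.33 ± 0.21. Akr1b7 had log2 fold changes of 0.31 ± 0.32 with naproxen and 0.64 ± 0.32 with NO-naproxen, and Akr1b1, which encodes aldose reductase, -0.23 ± 0.18 and -0.22 ± 0.18 against control. Only Akr1b1 had log2 fold changes below 0. Its arrays overlapped with control with either drug (limma, unadjusted p = 0.241 with naproxen and 0.26 with NO-naproxen).

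**Figure D1:**
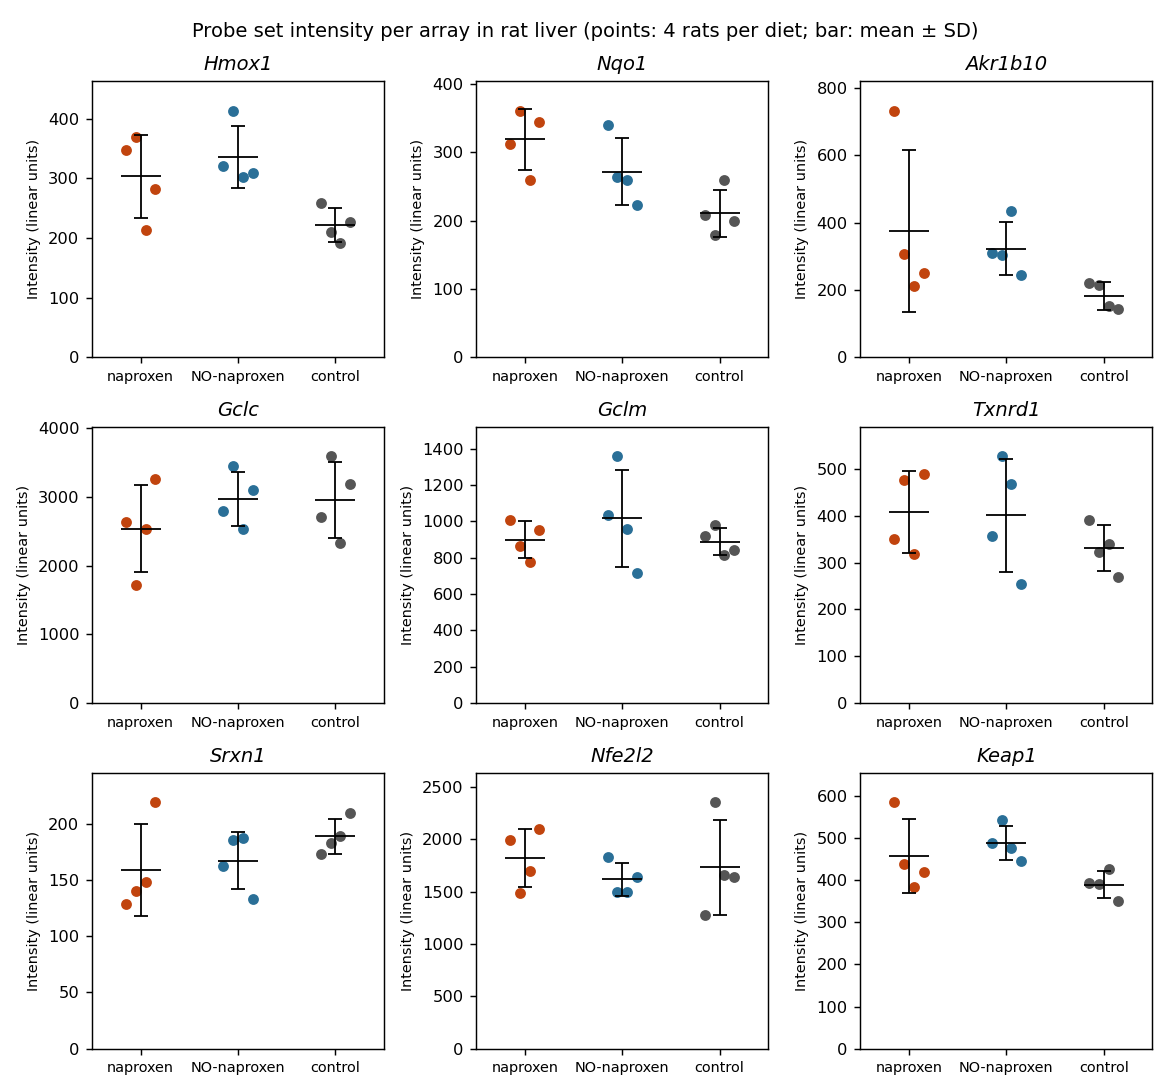
Intensity on a linear axis from 0 for each of the 9 genes, with 1 point per array, 4 rats per diet, and the mean ± SD as a bar. Hmox1, Akr1b10 and Keap1 show no overlap between NO-naproxen and control. Naproxen replicate 1 stands at 733 for Akr1b10, and the 3 diets overlap for Gclc, Gclm, Txnrd1, Srxn1 and Nfe2l2.

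The 4 enzymes of glutathione synthesis and thiol repair overlapped between diets, and their log2 fold changes had both signs. Gclc, the catalytic subunit of glutamate-cysteine ligase, measured 2641, 1723, 2529 and 3264 with naproxen, 2799, 3456, 2526 and 3096 with NO-naproxen, and 2709, 3588, 2333 and 3194 in controls (intensity, replicates 1 to 4). Its log2 fold change was -0.24 ± 0.21 (SE) with naproxen and 0.02 ± 0.21 with NO-naproxen, and naproxen replicate 2 was the lowest of the 12 arrays. Gclm, the modifier subunit of the same ligase, measured 1009, 867, 775 and 951 with naproxen, 1035, 1358, 960.3 and 714 with NO-naproxen, and 922, 979, 815 and 841 in controls. The NO-naproxen group held both the highest and the lowest Gclm value of the 12 arrays, with a coefficient of variation of 26.1% against 8.48% in controls. Its log2 fold changes were 0.01 ± 0.19 with naproxen and 0.16 ± 0.19 with NO-naproxen (SE), the 95% intervals reaching from -0.38 to 0.41 and from -0.24 to 0.56. The 2 subunits of the ligase therefore had intervals against control that held 0 with either drug.

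Txnrd1, the cytosolic thioredoxin reductase, measured 349.6, 476, 317 and 488 with naproxen, 356, 527, 468 and 255 with NO-naproxen, and 390.3, 323, 340.3 and 269 in controls (intensity, replicates 1 to 4). With each drug 2 of 4 arrays lay above every control, and with NO-naproxen replicate 4 lay below every control. The log2 fold changes were 0.28 ± 0.22 with naproxen and 0.23 ± 0.22 with NO-naproxen (SE), and 0.04 and -0.09 with Kupffer cell and macrophage markers, described below, as a covariate. Srxn1, the sulfiredoxin that reactivates overoxidized peroxiredoxins, was the member with the lowest log2 fold changes, at -0.25 ± 0.18 with naproxen and -0.17 ± 0.18 with NO-naproxen (SE). It measured 129, 139.8, 148 and 219 with naproxen, 163, 185, 187 and 133 with NO-naproxen, and 173, 183, 189 and 209 in controls. Naproxen replicates 1 to 3 lay below every control and replicate 4 above every control. Without each array in turn, the naproxen value of Srxn1 ranged from -0.40 to -0.17. Its unadjusted p in limma was under 0.05 in 1 of those 8 fits, and in 0 of 8 with NO-naproxen.

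Nfe2l2, the gene of NRF2 itself, measured 1995, 1485, 1700.3 and 2098 with naproxen, 1833, 1499, 1496 and 1642 with NO-naproxen, and 1274, 2353, 1662 and 1635 in controls (intensity, replicates 1 to 4). Control arrays held both the lowest and the highest value, and all drug-fed rats lay between them. The log2 fold changes were 0.09 ± 0.19 with naproxen and -0.07 ± 0.19 with NO-naproxen (SE), with 95% intervals from -0.32 to 0.50 and from -0.48 to 0.34. Keap1, the inhibitor, measured 585, 439, 385 and 419 with naproxen, 487, 542, 475 and 445 with NO-naproxen, and 392, 391, 426 and 349.5 in controls. All 4 NO-naproxen arrays lay above all 4 control arrays, and 2 of 4 naproxen arrays did. The log2 fold changes of Keap1 were 0.21 ± 0.16 with naproxen (limma, unadjusted p = 0.224) and 0.31 ± 0.16 with NO-naproxen (limma, unadjusted p = 0.0746). After quantile normalization they were 0.11 and 0.13 (limma, unadjusted p = 0.446 and 0.379), and without naproxen replicate 1 the naproxen value was 0.09.

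Ordered by mean intensity, NO-naproxen stood first for Hmox1 and Keap1 and naproxen for Nqo1, Akr1b10, Txnrd1 and Nfe2l2. For Hmox1 the means of the 2 drug groups differed by less than 1 SD of the naproxen group, and both drug means lay more than 1 SD of either group above the control mean. For Nqo1 the NO-naproxen mean stood between the others, and the NO-naproxen arrays overlapped with both the naproxen and the control arrays. Control stood first for Srxn1, and NO-naproxen for Gclm. For Gclc the NO-naproxen and control means were 2969 and 2956, with SDs of 399 and 549. The neighbouring means of Gclc, Gclm, Txnrd1, Srxn1 and Nfe2l2 differed by less than the larger SD of the neighbours.

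Counted over the 9 members, 3 were higher with naproxen at an unadjusted p under 0.05 and 0 lower, against 3.16% of all probe sets higher and 9.5% lower. Among probe sets above the olfactory receptor range, where all 9 lie, the share higher was 3.94%. With NO-naproxen, 2 members were higher and 0 lower, against 5.49% and 4.86% of all probe sets, or 7.72% higher above that range. At the adjusted threshold the count was 0 of 9 in both comparisons, as it was for all probe sets (0%). The arrays did not overlap for 3 of 9 members with NO-naproxen, Hmox1, Akr1b10 and Keap1, all higher, against 2% of all probe sets higher and 1.35% lower. With naproxen this was so for 0 of 9, against 2.09% of probe sets higher and 2.4% lower. By the series' own criterion, an unadjusted p under 0.05 and at least 1.5-fold, Akr1b10 alone passed with either drug, always higher. Of all probe sets 0.875% passed higher and 4.97% lower with naproxen, and 1.78% higher and 2.02% lower with NO-naproxen. Nqo1 with naproxen and Hmox1 with NO-naproxen stood just below that fold, each at 1.48-fold on the log2(intensity + 16) scale and 1.51-fold as a ratio of mean intensities. The median log2 fold change of the members was 0.21 with naproxen and 0.23 with NO-naproxen, against -0.03 and 0.00044 over all probe sets. Of all probe sets, 38.1% lay within the olfactory receptor range. The median and the share without overlap were not computed for the probe sets above that range alone. The members' median was 0.11 and 0.08 after quantile normalization, 0.09 with naproxen without naproxen replicate 1 and 0.09 with NO-naproxen without NO-naproxen replicate 2. Both comparisons share the 4 control arrays, and the members were chosen with results of these data known.

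**Figure D2:**
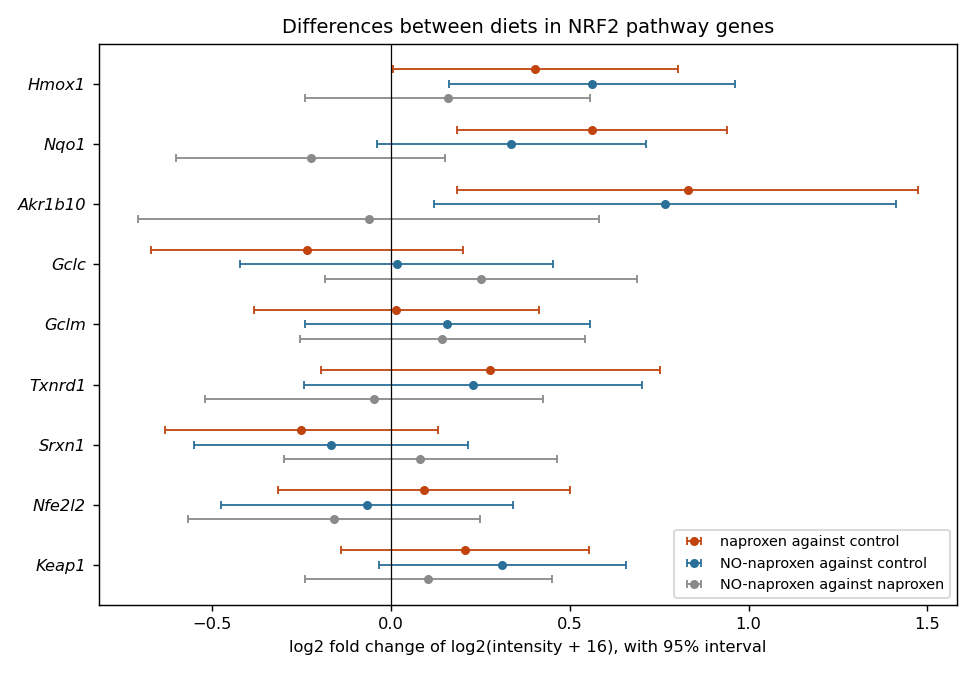
Log2 fold change of log2(intensity + 16) for each gene with its 95% interval from limma, in 3 comparisons of 4 arrays against 4. Intervals above 0 are those of Hmox1, Nqo1 and Akr1b10 with naproxen and of Hmox1 and Akr1b10 with NO-naproxen, and all 9 intervals of NO-naproxen against naproxen hold 0.

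NO-naproxen differs from naproxen by the group that releases nitric oxide. The diets held 550 mg/kg of NO-naproxen and 400 mg/kg of naproxen, so dose and compound cannot be told apart. These amounts are weights of different compounds and were not converted to moles. Between the 2 drug diets, 0 of 9 members had an unadjusted p under 0.05 in limma, against 1.92% of all probe sets, 1.28% higher and 0.644% lower, and 0 passed the adjusted threshold. By the series' own criterion 0 of 9 passed, against 0.427% of probe sets higher and 0.144% lower, and for 0 of 9 the arrays did not overlap, against 0.644% and 0.525%. The log2 difference of NO-naproxen minus naproxen was 0.16 for Hmox1, with a 95% interval from -0.24 to 0.56. It was -0.22 for Nqo1, with an interval from -0.60 to 0.15, and -0.06 for Akr1b10, with an interval from -0.71 to 0.58. Gclc had the largest positive difference at 0.25, with an interval from -0.19 to 0.69. The sign for Akr1b10 depended on single rats, with 0.31 without naproxen replicate 1 and 0.05 without NO-naproxen replicate 4. The members' median was 0.08, against 0.06 over all probe sets.

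Within diets the members did not move as one block. Over 36 pairs of members, Pearson correlations of deviations from the diet means, taken over the 12 arrays, ranged from -0.45 to 0.79 with a median of 0.24, and 25 of 36 were above 0. The highest was that of Akr1b10 with Keap1 (0.79), followed by Gclm with Txnrd1 (0.69) and Gclc with Nfe2l2 (0.61). The lowest was that of Nqo1 with Gclc (-0.45). Naproxen replicate 1 was the highest of the 12 arrays for both Akr1b10 (733) and Keap1 (585). The correlation of these 2 genes without that array was not computed. Hmox1 and Nqo1 had a correlation of 0.26 within diets and of 0.55 over the levels of all 12 arrays. All such values are descriptions, since the genes share arrays and the arrays differ in the spread of their signals. Among 9812 other named genes above the olfactory receptor range, the levels most like those of Hmox1 were Ubxn1 (r = 0.97), Spag7 (0.95), Zfp277 (0.92), Pcca (0.92) and Selenos (0.91). The first 2 also led within diets, at 0.95 and 0.92, followed by Ndufaf7 (0.90), Pcdh8 (0.88) and Cgrrf1 (0.87). The levels most like those of Nqo1 were Adora2a (r = 0.88), Lsp1 (0.88), Trappc3 (0.87), Vapb (0.87) and Cryz (0.85). Within diets they were Pgrmc2 (0.90), C6 (0.89), Crot (0.89), C4bpb (0.88) and Lrp5 (0.88). The member most like Hmox1 in level was Keap1 (r = 0.76), at place 270 of the 9812 genes, and Akr1b10 (0.70) stood at place 642.

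Other genes of the pathway were read from 5 lists, of which 63 of 83 genes carried a probe set of their own. With naproxen 2 of the 63 were higher and 2 lower at an unadjusted p under 0.05 in limma, and with NO-naproxen 4 were higher and 0 lower. Both counts are 6.35% of the 63 genes, against 12.7% and 10.4% of all probe sets, and 0 passed the adjusted threshold. Their median log2 fold changes were 0.10 with naproxen and 0.15 with NO-naproxen.

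Of 21 further NRF2 targets, Gstp1, a glutathione transferase, was higher with naproxen at an unadjusted p under 0.05 and Cbr3, a carbonyl reductase, lower. Both were dim, with means over all arrays only a little above the olfactory receptor range. Gstp1 averaged 93.8 ± 16.7 with naproxen and 69.3 ± 16.4 in controls (intensity, SD, n = 4 each), a log2 fold change of 0.37 ± 0.17 (SE), and the groups overlapped. Cbr3 averaged 64.4 ± 8.39 with naproxen and 88.5 ± 16.7 in controls, a log2 fold change of -0.37 ± 0.17, and Abcc4, an efflux transporter, had -0.35 ± 0.20. With NO-naproxen 0 of the 21 had an unadjusted p under 0.05, the smallest being those of Gstp1 (0.32 ± 0.17), Cbr3 (-0.27 ± 0.17) and the pentose phosphate enzyme Tkt (-0.21 ± 0.16, log2 fold change and SE). Of the 21, 12 had a log2 fold change above 0 with either drug, and the list's median was 0.07 with naproxen and 0.11 with NO-naproxen. Of the 4 genes printed with TGACTCAGC above, Prdx1, Me1 and Ephx1 had log2 fold changes of 0.74, -0.14 and -0.06 with naproxen, with unadjusted p of 0.296, 0.415 and 0.778 in limma. Prdx1 lay within the olfactory receptor range and spread from 11.7 to 194 with naproxen and from 0.364 to 205 in controls. Between the drug diets the smallest p in the list were those of the autophagy receptor Sqstm1, Abcc4 and the cystine carrier Slc7a11, with log2 differences of 0.24, 0.20 and 0.24, all with intervals that hold 0.

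Among 8 partners and regulators of NRF2, Bach2, a relative of the repressor BACH1, averaged 69.4 ± 16.9 with naproxen and 104 ± 26.2 in controls (intensity, SD, n = 4 each), a log2 fold change of -0.48 ± 0.22 (SE). With NO-naproxen it was -0.43 ± 0.22. Bach2 was dim, with a mean over all arrays only a little above the olfactory receptor range. Mafk, a small MAF partner of NRF2, did not overlap between naproxen (188 to 228) and control (139.6 to 188), with a log2 fold change of 0.25 ± 0.15, and Btrc, a ubiquitin ligase adaptor for NRF2, had 0.17 ± 0.14. With NO-naproxen Btrc did not overlap with control (296 to 333 against 248 to 291) at 0.20 ± 0.14, and Bach1 had 0.35 ± 0.24. Between the drug diets Maff, Palb2 and Mafk had log2 differences of 0.40, 0.36 and -0.11, all with intervals that hold 0.

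Of 9 genes of haem synthesis, breakdown and transport, Hmox2, the constitutive haem oxygenase, stood above control with both drugs. It averaged 388 ± 54.9 with naproxen, 358 ± 45.8 with NO-naproxen and 265 ± 47.9 in controls (intensity, SD, n = 4 each), and neither drug group overlapped with control. The log2 fold changes of Hmox2 were 0.53 ± 0.18 with naproxen (limma, unadjusted p = 0.00853) and 0.42 ± 0.18 with NO-naproxen (limma, unadjusted p = 0.0292). For Hmox1, known as the inducible form, they were 0.40 and 0.56. Biliverdin reductase Blvra, which acts on the product of both, had 0.29 ± 0.17 with naproxen. The haem synthesis enzyme Uros had 0.29 ± 0.20 with naproxen and 0.39 ± 0.20 with NO-naproxen, and Urod, the next enzyme of that path, 0.15 ± 0.16 with NO-naproxen. Between the drug diets Blvra, Hmox2 and the haem carrier Hpx had log2 differences of -0.21, -0.11 and 0.10.

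In the glutathione list of 11 genes, 0 had an unadjusted p under 0.05 with naproxen, where Glrx, Ggct and Glrx2 had log2 fold changes of 0.25 ± 0.17, 0.22 ± 0.16 and 0.20 ± 0.18 (SE). With NO-naproxen Ggct, an enzyme of glutathione breakdown, averaged 86.8 ± 13.1 against 64.1 ± 7.61 in controls (intensity, SD, n = 4 each), a log2 fold change of 0.35 ± 0.16, and the groups overlapped. Ggct was dim, with a mean over all arrays only a little above the olfactory receptor range. Chac2, within that range, and Glrx2 had 0.29 ± 0.18 each with NO-naproxen. Of 14 genes of the thioredoxin, peroxiredoxin and superoxide list, 12 had a log2 fold change above 0 with naproxen and 14 of 14 with NO-naproxen, with medians of 0.21 and 0.18. Over all probe sets, 38.1% of which lay within the olfactory receptor range, 45.9% and 50.1% were above 0. The share among probe sets above that range, where all 14 genes lie, was not computed. The mitochondrial thioredoxin reductase Txnrd2 did not overlap between NO-naproxen (359 to 438) and control (288 to 336), with a log2 fold change of 0.36 ± 0.15, and had 0.31 ± 0.15 with naproxen. The extracellular superoxide dismutase Sod3 did not overlap either between NO-naproxen (421 to 492) and control (312 to 385), at 0.35 ± 0.16. The peroxiredoxin Prdx6 had 0.31 ± 0.21 with naproxen and 0.37 ± 0.21 with NO-naproxen, and the methionine sulfoxide reductase Msrb2, without overlap, 0.30 ± 0.15 with naproxen. Between the drug diets Ggct, Chac1 and Chac2 of the first list had log2 differences of 0.14, -0.23 and 0.29, and Sod3, Sod2 and Prdx4 of the second 0.15, 0.13 and -0.15.

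**Figure D3:**
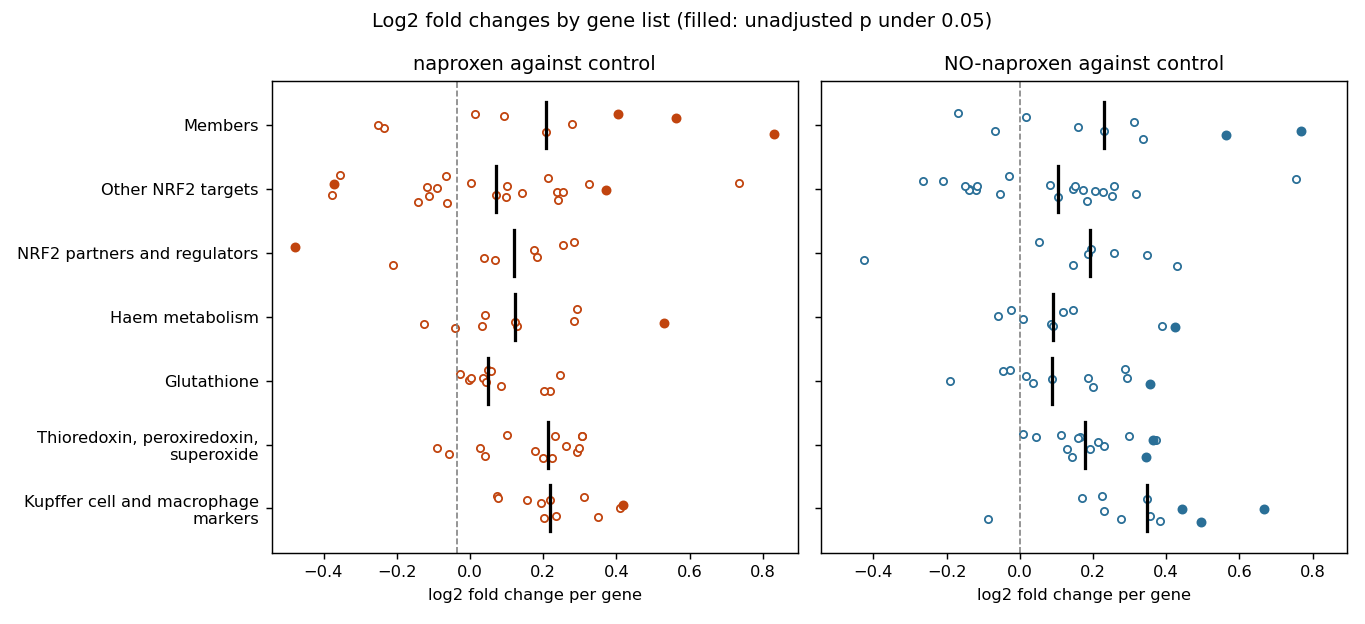
Log2 fold change of each measured gene by list, for naproxen (left) and NO-naproxen (right) against control. Filled points have an unadjusted p under 0.05 in limma, thick bars are list medians and the dashed line is the median of all 19418 probe sets. Among the members, 3 points are filled with naproxen and 2 with NO-naproxen, and list medians lie between 0.05 and 0.35.

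Markers of Kupffer cells and macrophages, the liver phagocytes that take up red cells and express Hmox1, mostly had log2 fold changes above 0 as well. Of 11 measured markers, all above the olfactory receptor range, 11 had a log2 fold change above 0 with naproxen and 10 with NO-naproxen, with medians of 0.22 and 0.35. Over all probe sets 45.9% and 50.1% were above 0, and the share above that range was not computed. At an unadjusted p under 0.05 in limma, 1 of the 11 was higher with naproxen and 3 with NO-naproxen. The shares of probe sets above that range were 3.94% and 7.72%. Their summed intensity lay between 5004 and 6942 with naproxen, between 5360.1 and 8371 with NO-naproxen and between 4386 and 6472 in controls, so the groups overlapped. With the mean marker level of each array as a covariate, an alternative chosen after seeing the data, Hmox1 had log2 fold changes of 0.23 with naproxen (limma, unadjusted p = 0.225) and 0.33 with NO-naproxen (limma, unadjusted p = 0.107). For Akr1b10 they were 0.56 and 0.41 (limma, unadjusted p = 0.0886 and 0.228), and for Nqo1 0.56 and 0.33 (limma, unadjusted p = 0.0135 and 0.136). The value of Nqo1 with naproxen thus moved by less than 0.01, while those of Hmox1 and Akr1b10 were smaller. Other non-hepatocyte markers had both directions. Of 3 measured endothelial markers 3 of 3 had a log2 fold change above 0 with each drug, and of 7 stellate cell markers 7 with naproxen and 6 with NO-naproxen. At an unadjusted p under 0.05 in limma, 3 endothelial and 2 stellate cell markers were higher with naproxen. With NO-naproxen 0 and 1 were. Of the cell marker lists, only that of Kupffer cells and macrophages was used as a covariate. Of 7 lymphocyte and neutrophil markers, only Cd8a lay above the olfactory receptor range. Of the 7, 2 were above 0 with naproxen and 3 with NO-naproxen, with medians of -0.37 and -0.21. Of 3 cholangiocyte markers 1 was above 0 with naproxen and 2 with NO-naproxen, and Krt19, the 1 above the olfactory receptor range, had -0.04 and -0.23. The summed endothelial intensity was 1349 to 1552 with naproxen, 1138 to 1446 with NO-naproxen and 921 to 1228 in controls, so naproxen and control arrays did not overlap. The part of these cells in the members' differences was not tested.

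**Figure D4:**
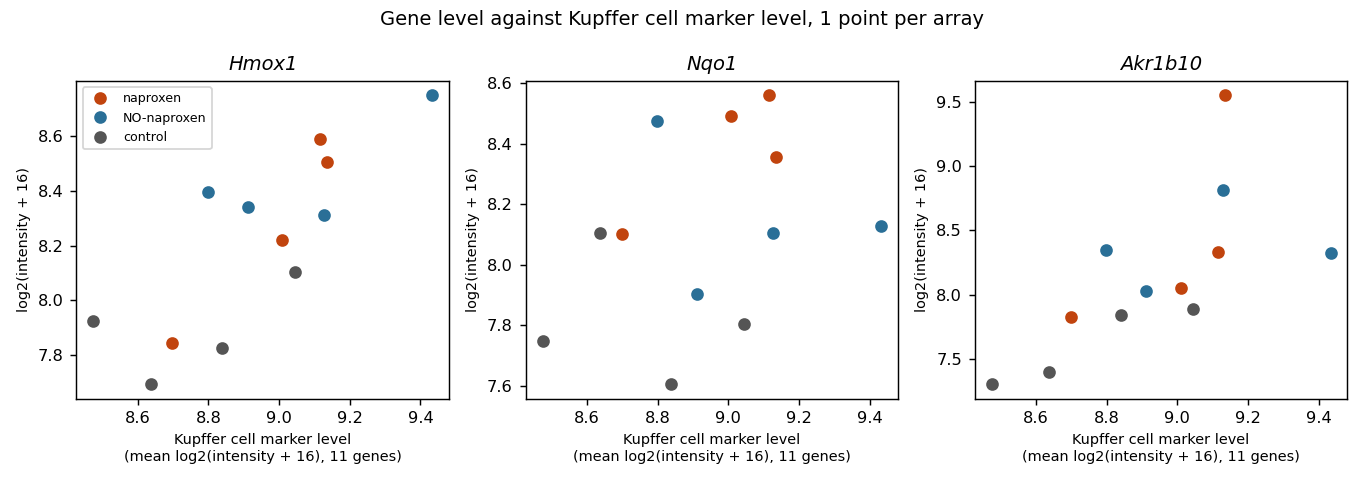
Level of Hmox1, Nqo1 and Akr1b10 against the mean level of 11 Kupffer cell and macrophage markers, both as log2(intensity + 16), with 1 point per array coloured by diet. NO-naproxen replicate 2 is highest in both marker level and Hmox1, at 9.43 and 8.75, and control replicate 4 is lowest in marker level, at 8.47.

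The arrays also differed in the spread of their signals. The interquartile range per array was 2.34 ± 0.16 log2 units with naproxen, 2.36 ± 0.23 with NO-naproxen and 2.10 ± 0.19 in controls (SD, n = 4 each). With that range as a covariate, Nqo1 had log2 fold changes of 0.62 with naproxen and 0.40 with NO-naproxen (limma, unadjusted p = 0.00491 and 0.0554). Hmox1 had 0.33 and 0.48 (limma, unadjusted p = 0.124 and 0.0339), and Akr1b10 0.66 and 0.58 (limma, unadjusted p = 0.0672 and 0.11). Without the 2 arrays of narrowest range, control replicates 3 and 4, Nqo1 with naproxen stood at 0.67 (limma, unadjusted p = 0.00839), and it was then the 1 member with an unadjusted p under 0.05 in either comparison with control.

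**Figure D5:**
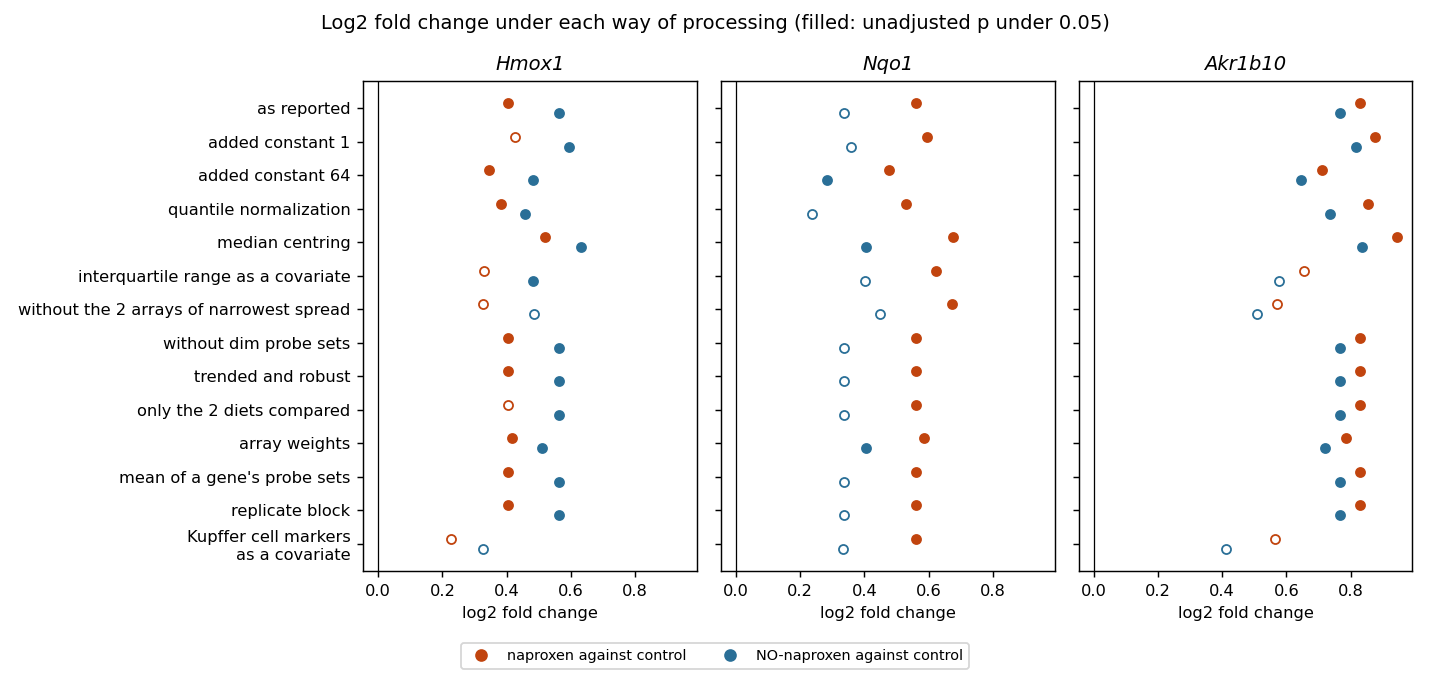
Log2 fold change of Hmox1, Nqo1 and Akr1b10 against control as reported and under 13 other ways of processing, with filled points at an unadjusted p under 0.05 in limma. All points lie above 0, and Nqo1 with naproxen is filled in all 13, between 0.48 and 0.68.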

How the data were processed

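Each of 12 arrays has 19418 deposited intensities, linear and 1 per probe set. The submitters' processing notes name Affymetrix Expression Console 1.1.1 as the tool and rn4 as the build. RNA was freed of ribosomal RNA and labelled with biotin, per the labels' protocols. The sources used here do not say how the authors summarised and normalized these intensities. Of the probe sets, 13327 carried 1 gene symbol, 620 several and 5471 none, and only the first were named. For log2 values, computed from the deposited intensities, 16 was added first. The 3 diets were compared in a single linear model over the 12 arrays (limma 3.58.1 under R 4.3.3, functions lmFit and eBayes), with 2-sided tests, and p-values were adjusted by Benjamini-Hochberg over all probe sets. The fit was also run on simulated data with independent noise for each probe set and no differences in spread between arrays. The nonzero shifts simulated were larger than any member's difference, so that run does not test the results above. Array pairs correlated between 0.908 and 0.981, and 0 arrays were identical.

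The members, the pathway and marker lists and the rule for naming genes were chosen with earlier results of these data known. The rule names the members, up to 3 genes of smallest p per pathway list and comparison, those at an unadjusted p under 0.05 without overlap, and the 5 genes most like Hmox1 and Nqo1. Prdx1, Me1 and Ephx1 were added for their promoter sequence, and the relatives of Akr1b10 after their values were seen. Alternatives are given below. Figures were drawn with matplotlib 3.10.9.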

Additional observations from a re-analysis of the deposited data

How the results depend on the processing

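The count of members past the adjusted threshold was 0 in all 3 comparisons under every alternative run, and Hmox1, Nqo1, Akr1b10, Srxn1 and Keap1 kept their sign against control in each. The count of members at an unadjusted p under 0.05 with naproxen, 3 as reported, was 1 with the interquartile range as a covariate, without the 2 arrays of narrowest spread and with Kupffer cell markers as a covariate, and 1 to 3 without each array in turn. With NO-naproxen, 2 as reported, it was 4 with an added constant of 64, after median centring and with array weights, 1 with the interquartile range as a covariate, 0 without the 2 narrowest arrays and with Kupffer cell markers as a covariate, and 1 to 3 without each array in turn. The members' median with NO-naproxen was 0.0175 with Kupffer cell markers as a covariate, and the cause was not tested.

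For the pathway genes, whose alternatives were chosen after seeing the data, the count with naproxen, 4 as reported, was 7 after median centring and with array weights, 2 with only the 2 diets compared and with the replicate block, 1 with a trended and robust spread and with Kupffer cell markers as a covariate, 0 without the 2 narrowest arrays, and 1 to 6 without each array in turn. With NO-naproxen, also 4, it was 2 with the interquartile range as a covariate, 1 without the 2 narrowest arrays and with Kupffer cell markers as a covariate, and 1 to 5 without each array. Between the drug diets, 0 as reported, it was 1 with an added constant of 1 and 0 to 1 without each array.

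Gclc, Gclm, Txnrd1 and Nfe2l2 changed sign against control under some settings. With naproxen, Gclm was -0.0825 after quantile normalization, -0.152 with the interquartile range as a covariate, -0.0833 without the 2 narrowest arrays and -0.146 with Kupffer cell markers as a covariate, and Nfe2l2 was -0.0325 with the interquartile range as a covariate. With NO-naproxen, Gclc was -0.0584 after quantile normalization, -0.16 with the interquartile range as a covariate and -0.0798 without the 2 narrowest arrays. Gclm was -0.022 after quantile normalization, -0.0231 with the interquartile range and -0.0553 with the Kupffer cell markers as a covariate. With the Kupffer cell markers as a covariate Txnrd1 was -0.0852 and Nfe2l2 0.0175. Nfe2l2 was 0.00167 after median centring and 0.124 with array weights. Without each array in turn, Gclm with naproxen ranged from -0.0417 to 0.0828, Nfe2l2 from -0.0417 to 0.251 with naproxen and -0.202 to 0.0906 with NO-naproxen, and Gclc with NO-naproxen from -0.0913 to 0.115. Between the drug diets Akr1b10 ranged from -0.266 to 0.307, Srxn1 from -3.73e-04 to 0.233, Txnrd1 from -0.19 to 0.144 and Gclm from -0.00639 to 0.298.

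Same-numbered arrays had correlations of deviations from -0.382 to 0.332 for naproxen with control and from 0.0384 to 0.481 for NO-naproxen with control, and the labels name no litter or day behind a number, so the replicate numbers were not taken as pairs. With 1 array per number in each diet, a replicate block cannot move a fold change. Under the replicate block the unadjusted p in limma with naproxen was 0.0391 for Hmox1 at 0.404, 0.0123 for Nqo1 at 0.562 and 0.00845 for Akr1b10 at 0.83. Median centring gave Hmox1 0.52 and Nqo1 0.68 with naproxen.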

Other observations

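Markers of other liver cells gave the following summed intensities. The 7 stellate cell markers lay between 3062 and 3982 with naproxen, 3090.1 and 4175 with NO-naproxen and 2382 and 3744 in controls. The 9 hepatocyte markers lay between 70690.0 and 78705 with naproxen, 72738 and 86516 with NO-naproxen and 73610.0 and 82797 in controls. Of these 9, 3 had a log2 fold change above 0 with naproxen and 5 with NO-naproxen, against 45.9% and 50.1% of all probe sets. With naproxen Tat had -0.42 (limma, unadjusted p = 0.0422), and Hnf4a, without overlap, -0.33 (limma, unadjusted p = 0.0704). With NO-naproxen they had -0.04 and -0.05. For cholangiocytes, 1 of 3 measured markers was above the olfactory receptor range, and for lymphocytes and neutrophils 1 of 7. Slc4a1, the measured red cell marker, lay between 606 and 712 with naproxen, 468 and 786 with NO-naproxen and 502 and 870.2 in controls. The part of these cells in the members' differences was not tested.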
